A study of Homo sapiens with 38 samples.

Results

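The genes described here are 29 genes of cholesterol and fatty acid synthesis, chosen by name because their promoters are known as joint targets of Sp1 and the SREBP transcription factors. They are 29 of 20033 protein-coding genes in the GENCODE 44 annotation of hg38. By role they comprised 5 regulators (the SREBP genes SREBF1 and SREBF2, with SCAP, INSIG1 and INSIG2) and 7 genes of the mevalonate steps. The others were 12 genes of the squalene and sterol steps, 3 genes of fatty acid synthesis and 2 genes of sterol transport. A gene was called occupied in a list of peaks when a peak lay within 1000 bp of any of its annotated transcript starts.

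Sterol and lipid synthesis is switched on when cells run short of cholesterol. SCAP then carries the membrane-bound SREBP precursors, the products of SREBF1 and SREBF2, out of the endoplasmic reticulum, where the INSIG proteins otherwise hold them, and the cleaved factors enter the nucleus. SREBPs bind sterol regulatory elements and act together with partners such as Sp1, a zinc finger protein that binds GC boxes, and NF-Y, a trimer that binds CCAAT boxes.

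Binding was measured by CUT&RUN, in which an antibody directs a nuclease to cut the DNA around its target in permeabilized cells, in U2OS, a human osteosarcoma line. All cells carried V5 and Halo tags on endogenous Sp1. Besides this parental line, 9 lines expressed a doxycycline-inducible, FLAG-tagged construct: Sp1 WT (full length), Sp1 DBD (the DNA binding domain with the short C-terminal disordered region, without the N-terminal one), EWS IDR-Sp1 DBD (the disordered region of EWS on the Sp1 DBD), CTCF DBD, Sp1 IDR-CTCF DBD, LacI (the bacterial lac repressor), Sp1 IDR-LacI, Sp1 DBD Mutant (a truncation that leaves a single zinc finger) and SNAP-NLS (a tag with a nuclear signal). All cells, the parental line included, received 1 µg/mL doxycycline for 36 hours before and 36 hours after sorting. Anti-FLAG antibody marked the construct, and rabbit or mouse anti-V5 antibody marked endogenous Sp1 in the parental, Sp1 WT, Sp1 IDR-LacI and Sp1 IDR-CTCF DBD lines. The endogenous tagged Sp1 was present in every line, and how much of each construct the sorted cells held is not known from the peak files.

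The 38 samples covered 19 pairings of a line with an antibody in 2 replicates, and for each pairing the authors made 1 list of peaks found in both replicates. Lists held 22 to 5151 peaks, and read numbers were not analysed here. Peak strength is given below as the −log10 p-value in each replicate, and rank as a percentile, the share of a list's peaks that are weaker, with 100 the strongest. The list rank follows the weaker of the replicate p-values. No test between lists was run, since 2 replicates against 2 cannot give an exact two-sided permutation p below 0.33, and differences are set against the spread between the replicates behind a list. Peaks were called against merged control replicates, and which lists had the same controls was not stated, so presence of a gene in several lists is not treated as independent.

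Promoter sequences of the highest-ranked gene of each role in the Sp1 WT list are shown first, with matches to the motifs of Sp1, NF-Y and SREBP marked. A match is not a measure of binding, and binding of NF-Y and SREBP was not measured. They are RefSeq promoters (GRCh38.p14), from 250 bases before to 50 bases after a start, on the strand of the gene. Capitals mark the GC box GGGCGG, the CCAAT box CCAAT and the sterol regulatory element TCACCCCAC, each searched on both strands, so that CCGCCC and ATTGG are the reverse forms. SREBF2 is shown on the plus strand at chr22:41832855-41833154, PMVK on the minus strand at chr1:154936670-154936969, LSS on the minus strand at chr21:46228725-46229024, and ACACA on the minus strand at chr17:37359047-37359346, an internal promoter of that gene. In no list did a sterol transport gene have a peak.
SREBF2: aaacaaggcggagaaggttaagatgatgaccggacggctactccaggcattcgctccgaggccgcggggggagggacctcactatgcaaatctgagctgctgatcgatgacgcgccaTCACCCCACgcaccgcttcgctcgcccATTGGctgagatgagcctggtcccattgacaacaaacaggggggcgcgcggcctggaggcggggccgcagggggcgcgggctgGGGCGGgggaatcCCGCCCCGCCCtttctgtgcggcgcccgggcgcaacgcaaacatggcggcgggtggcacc
PMVK: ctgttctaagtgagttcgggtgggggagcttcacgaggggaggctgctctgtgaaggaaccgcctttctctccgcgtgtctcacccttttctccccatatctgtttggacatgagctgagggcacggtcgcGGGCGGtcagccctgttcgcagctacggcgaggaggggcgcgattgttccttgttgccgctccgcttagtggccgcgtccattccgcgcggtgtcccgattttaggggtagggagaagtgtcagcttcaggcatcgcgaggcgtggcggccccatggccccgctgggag
LSS: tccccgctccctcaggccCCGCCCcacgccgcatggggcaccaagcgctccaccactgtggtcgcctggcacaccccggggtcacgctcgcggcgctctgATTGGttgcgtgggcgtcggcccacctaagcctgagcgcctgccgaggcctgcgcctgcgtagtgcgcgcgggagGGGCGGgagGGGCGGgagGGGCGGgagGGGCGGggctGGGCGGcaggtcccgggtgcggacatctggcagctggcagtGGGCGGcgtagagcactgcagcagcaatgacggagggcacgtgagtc
ACACA: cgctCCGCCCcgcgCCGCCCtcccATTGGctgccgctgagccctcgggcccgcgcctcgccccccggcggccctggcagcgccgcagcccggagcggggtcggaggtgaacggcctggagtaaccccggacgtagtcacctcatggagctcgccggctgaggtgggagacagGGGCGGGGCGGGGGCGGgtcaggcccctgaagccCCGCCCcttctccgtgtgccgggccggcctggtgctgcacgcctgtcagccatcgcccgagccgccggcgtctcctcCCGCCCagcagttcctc

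The LSS window held 7 GC boxes and 1 CCAAT box, and the ACACA window 7 GC boxes and 1 CCAAT box. SREBF2 had 3 GC boxes, 1 CCAAT box and 1 sterol regulatory element. PMVK had a single GC box, and its Sp1 WT summit lay 417 bp upstream of the start, outside the window shown.

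Promoters of 3 genes that no Sp1 list occupied are shown for contrast, with the same marks. INSIG1 is on the plus strand at chr7:155297628-155297927, SCD on the plus strand at chr10:100346983-100347282, and STARD4 on the minus strand at chr5:111512486-111512785. These held 6, 2 and 1 GC boxes and 1, 2 and 2 CCAAT boxes, respectively, so GC boxes were present with no peak called nearby.
INSIG1: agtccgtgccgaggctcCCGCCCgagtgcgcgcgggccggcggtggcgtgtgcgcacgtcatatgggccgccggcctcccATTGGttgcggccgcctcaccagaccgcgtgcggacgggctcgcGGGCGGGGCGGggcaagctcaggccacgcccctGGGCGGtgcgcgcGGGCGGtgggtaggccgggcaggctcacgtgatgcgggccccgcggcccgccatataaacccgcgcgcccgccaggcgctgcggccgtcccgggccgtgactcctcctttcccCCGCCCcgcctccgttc
SCD: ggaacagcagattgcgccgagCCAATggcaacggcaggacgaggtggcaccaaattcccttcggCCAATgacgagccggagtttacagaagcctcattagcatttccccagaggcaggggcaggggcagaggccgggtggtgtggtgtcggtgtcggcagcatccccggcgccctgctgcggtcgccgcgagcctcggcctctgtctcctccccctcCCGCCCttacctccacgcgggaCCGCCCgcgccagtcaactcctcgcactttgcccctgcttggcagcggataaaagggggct
STARD4: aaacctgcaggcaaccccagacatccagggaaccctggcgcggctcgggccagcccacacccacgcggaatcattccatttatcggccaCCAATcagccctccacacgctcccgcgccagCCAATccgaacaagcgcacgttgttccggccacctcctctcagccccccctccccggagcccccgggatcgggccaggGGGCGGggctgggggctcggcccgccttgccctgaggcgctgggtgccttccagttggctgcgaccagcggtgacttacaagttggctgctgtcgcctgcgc

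In the Sp1 WT anti-FLAG list 16 of the 29 genes were occupied, 55.2%, where 23.7% of all protein-coding genes were. Sp1 DBD occupied 9 (31.0%, against 16.1% of all genes) and EWS IDR-Sp1 DBD occupied 7 (24.1%, against 11.1%). Endogenous Sp1 of the parental line occupied 6 with the rabbit anti-V5 antibody (20.7%, against 10.4%) and 5 with the mouse antibody (17.2%, against 9.75%). The occupied share of the genes thus stood above the share of all genes in each of these lists.

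These counts were in the order of the lengths of the lists, which fell from 5151 peaks for Sp1 WT to 3277 for Sp1 DBD, 2535 for EWS IDR-Sp1 DBD, 1987 for the parental rabbit and 1830 for the parental mouse anti-V5 list. With each list cut to its strongest 1830 peaks, 6 of the 29 genes remained for Sp1 WT, 4 for Sp1 DBD, 5 for EWS IDR-Sp1 DBD and 5 for either parental anti-V5 list. Among equal numbers of peaks the counts thus lay between 4 and 6. The share of all genes in lists of that length was 9.63% for Sp1 WT, 9.48% for Sp1 DBD, 8.37% for EWS IDR-Sp1 DBD, 9.78% for the parental rabbit and 9.75% for the parental mouse list.

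The promoters of the 29 genes also differed from those of all genes. They had a median of 9 annotated starts, against 5 over all genes, and 28 of them had a GC box in the promoter window, against 61.3% of all genes. Among the 12282 genes with such a GC box, Sp1 WT occupied 32.6%, and 15 of the 28. With only 1 start per gene, 15 of the 29 and 21.3% of all genes were occupied by Sp1 WT.

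The other anti-V5 lists held between 1 and 6 of the genes. In the Sp1 IDR-LacI line they held 6 genes with the rabbit antibody (11.1% of all genes) and 4 with the mouse antibody (8.8%). The Sp1 WT line gave 6 genes with the rabbit antibody (8.66%) but only LSS with the mouse antibody (6.81%). In the Sp1 IDR-CTCF DBD line there were 3 with the rabbit antibody (11.1%) and 2 with the mouse antibody (7.34%). The last line's counts, 10.3% and 6.90% of the 29, were near the share of all genes, and the mouse list of the Sp1 WT line, at 3.45%, was below it.

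Constructs without an intact Sp1 DBD had almost no peaks at the genes. The CTCF DBD list, with 649 peaks, held FDPS alone (1.88% of all genes). Sp1 IDR-CTCF DBD, with 166 peaks, held none of the 29 genes (0.574%), and Sp1 IDR-LacI, with 228 peaks, also none (0.00499% of all genes, which is 1 gene). LacI, Sp1 DBD Mutant and SNAP-NLS and both anti-FLAG lists of the parental line occupied 0 of the 29 genes and 0% of all genes. These 5 lists held 22 to 295 peaks, and none lay within 1000 bp of a protein-coding start.

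**Figure D1:**
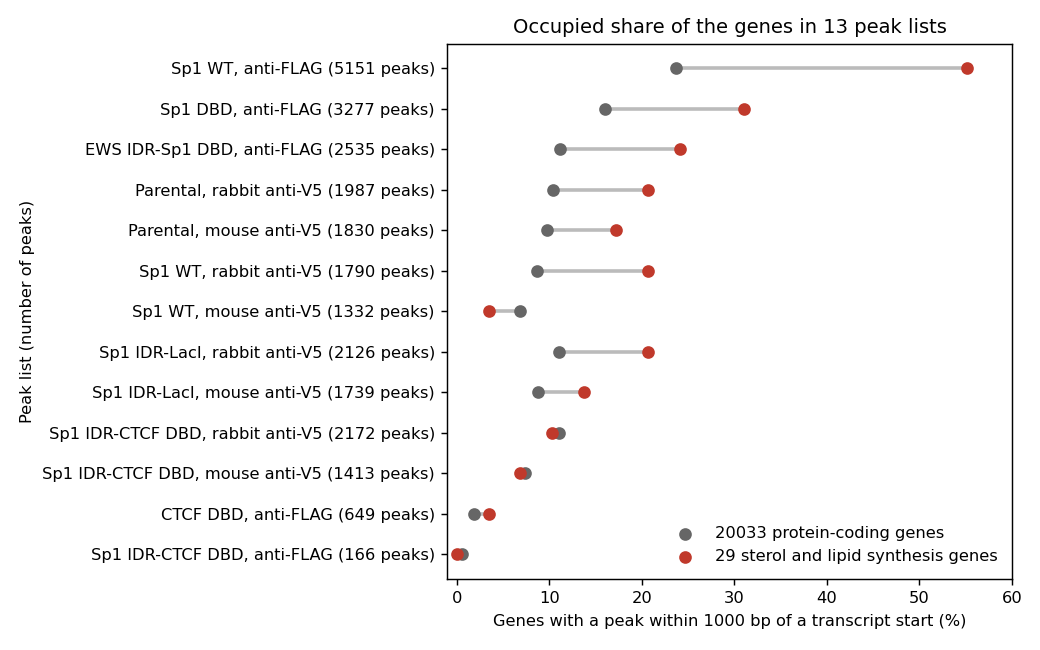
Share of genes with a peak within 1000 bp of a transcript start (x axis, percent) in 13 lists (y axis, with the number of peaks), for the 29 genes (red) and all 20033 protein-coding genes (grey). The gap is widest for Sp1 WT, 55.2% against 23.7%, and the red points fall below the grey ones in all 3 lists of the Sp1 IDR-CTCF DBD line and in the mouse anti-V5 list of the Sp1 WT line.

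Across the 11 lists of Sp1 or its DBD (3 anti-FLAG and 8 anti-V5), 17 of the 29 genes appeared at least 1 time, and 28.9% of all genes did. LSS was in 10 of the 11, SREBF2 and SQLE in 7, PMVK and HSD17B7 in 6, DHCR7 in 5, and SREBF1 and HMGCS1 in 4. FDFT1 and MSMO1 were in 3, MVK, ACACA and INSIG2 in 2, and FDPS, CYP51A1, NSDHL and EBP in 1. None was in all 11, where 2.07% of all genes were, and LSS alone was in all 8 anti-V5 lists, where 4.22% of all genes were.

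**Figure D2:**
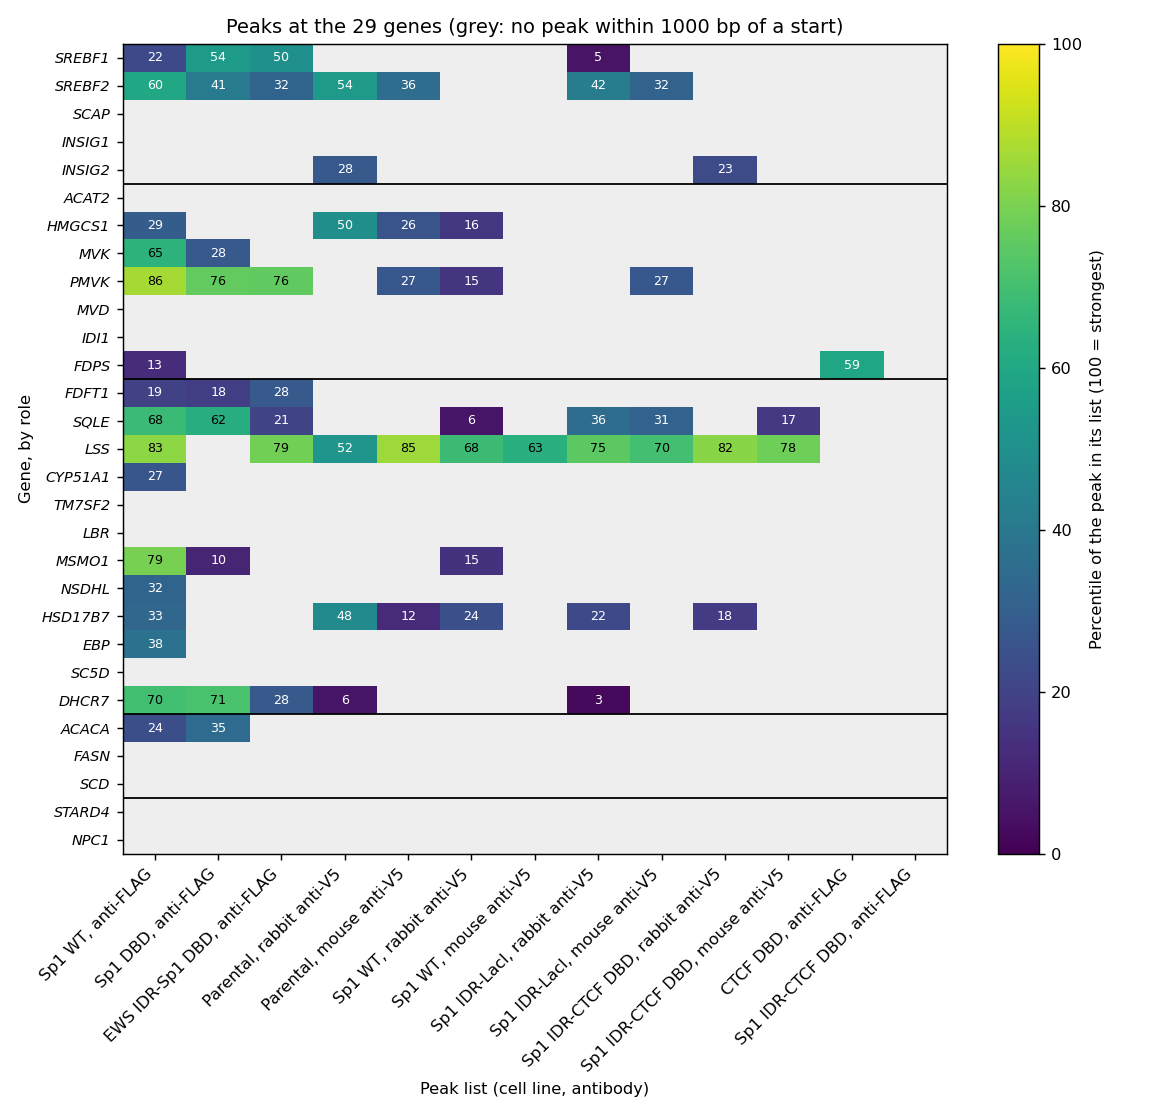
Percentile of the highest-ranked peak at each of the 29 genes (rows, separated by role) in 13 lists (columns), with 100 the strongest peak of a list and grey where no peak lay within 1000 bp of a start. The row of LSS is filled in 10 of the 11 lists of Sp1 or its DBD, at percentiles of 52.1 to 85.5, and 12 rows have no peak in any list.

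Of the regulators, SREBF2, which encodes the SREBP of the cholesterol genes, was occupied by all 3 constructs with the Sp1 DBD and in 4 anti-V5 lists. Its −log10 p-values in the first and the second deposited replicate were 21.7 and 45.7 for Sp1 WT, 14.3 and 22.7 for Sp1 DBD, and 13.4 and 28.1 for EWS IDR-Sp1 DBD. In the parental line they were 22.6 and 22.8 with rabbit and 18.7 and 43.2 with mouse anti-V5. The replicate percentiles for Sp1 WT (59.3 and 72.8) overlapped those for Sp1 DBD (30.6 and 61.3) and for EWS IDR-Sp1 DBD (23.6 and 73.1), so its ranks in the 3 lists were not apart beyond the replicates.

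SREBF1, which encodes SREBP1, had no peak at its annotated main start (chr17, base 17836986). Sp1 WT had peaks at 2 internal starts, chr17:17818961-17820795 with −log10 p-values of 12.4 and 23.7, and chr17:17823032-17824438, the weaker of the pair in the list rank (percentiles 21.9 and 7.06). Sp1 DBD (17.1 and 22.1), EWS IDR-Sp1 DBD (27.4 and 16.2) and the rabbit anti-V5 list of the Sp1 IDR-LacI line (9.37 and 21.6) had a peak at the second of these places only. The gene's peaks were thus all at internal starts.

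INSIG2, a retention factor of SREBP, was missing from all 3 anti-FLAG lists but present with rabbit anti-V5 in the parental line (14.6 and 30.5) and in the Sp1 IDR-CTCF DBD line (13.1 and 12.3). The nearest Sp1 WT peak lay 1116963 bp away. SCAP and INSIG1 were in no list, with the nearest Sp1 WT peaks at 36227 and 91960 bp.

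Of the mevalonate genes, PMVK, which encodes phosphomevalonate kinase, had the strongest Sp1 WT peak of the 29 genes, at rank 755 of 4744 occupied genes. Its −log10 p-values were 38.8 and 66.8 for Sp1 WT, 27.6 and 25.2 for Sp1 DBD, and 25.9 and 22.98 for EWS IDR-Sp1 DBD. With anti-V5 they were 15.6 and 30.1 in the parental mouse list, 11.0 and 14.6 in the Sp1 WT rabbit list, and 14.2 and 14.9 in the Sp1 IDR-LacI mouse list. PMVK therefore ranked high with the constructs (percentiles of 75.5 to 86.5) and low with anti-V5 (15.2 to 27.05). Its Sp1 WT summit was nearer to the start of a long noncoding RNA, ENSG00000270361 (234 bp), than to its own.

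MVK, which encodes mevalonate kinase, was occupied by Sp1 WT (23.3 and 35.3) and Sp1 DBD (12.9 and 12.3) only. That peak lay between MVK and its divergent neighbour MMAB, whose start was nearer to the summit (102 bp) than that of MVK (111 bp). HMGCS1, which encodes HMG-CoA synthase, was occupied by Sp1 WT (13.9 and 28.1) and neither of the other constructs, and by anti-V5 in the parental rabbit (21.5 and 25.9), parental mouse (15.4 and 30.7) and Sp1 WT rabbit (11.2 and 12.6) lists. FDPS, which encodes farnesyl diphosphate synthase, had the lowest Sp1 WT rank of the occupied genes, percentile 12.7 (10.7 and 22.8), and it was the only one of the 29 with a CTCF DBD peak (11.0 and 14.8, percentile 58.8 of the 649 peaks).

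ACAT2, MVD and IDI1, which encode the thiolase, decarboxylase and isomerase of the same pathway, were in none of the 19 lists. The nearest Sp1 WT peaks were 14085, 22981 and 1265794 bp from their starts. The mevalonate steps were thus occupied by Sp1 WT in 4 of 7 genes, by Sp1 DBD in 2 and by EWS IDR-Sp1 DBD in 1.

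Sequences of 81 bases centred on the Sp1 WT summit are shown for PMVK and for MVK and HMGCS1, the latter pair chosen after their values were seen because both kinds of box lie close together there. They are hg38 plus strand, at chr1:154937096-154937176, chr12:109573642-109573722 and chr5:43313504-43313584, with capitals as above. The PMVK window held no match to any of these motifs.
PMVK: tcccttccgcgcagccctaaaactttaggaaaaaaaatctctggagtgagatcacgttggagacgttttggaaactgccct
MVK: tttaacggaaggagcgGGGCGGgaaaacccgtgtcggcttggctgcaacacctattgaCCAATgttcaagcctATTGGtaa
HMGCS1: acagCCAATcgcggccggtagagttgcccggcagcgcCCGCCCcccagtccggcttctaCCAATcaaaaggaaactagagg

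The squalene and sterol steps, with 12 of the 29 genes, had the most occupied genes by count. Sp1 WT occupied 9 of the 12 (23.7% of all genes) and Sp1 DBD 5 (16.1%). EWS IDR-Sp1 DBD occupied 4 (11.1%), and 5 were in at least 1 anti-V5 list (15.1%). Of the 5 regulators, 2 were in the EWS IDR-Sp1 DBD list and 3 in at least 1 anti-V5 list. LSS, which encodes lanosterol synthase and closes the sterol rings, stood out by its number of lists. Its −log10 p-values were 35.0 and 69.5 for Sp1 WT and 25.4 and 24.3 for EWS IDR-Sp1 DBD. With anti-V5 they were 21.95 and 58.8 in the parental rabbit list and 62.4 and 116 in the parental mouse list.

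In the Sp1 WT line LSS had 23.2 and 52.2 (rabbit) and 30.3 and 76.6 (mouse), and in the Sp1 IDR-LacI line 31.6 and 40.3 (rabbit) and 33.1 and 55.7 (mouse). In the Sp1 IDR-CTCF DBD line it had 36.5 and 45.3 (rabbit) and 42.0 and 55.3 (mouse). It lay at the 52.1st to 85.5th percentile in all 8 anti-V5 lists. The summits of its 10 peaks lay between −166 and −140 bp of a start, negative distances being upstream. Sp1 DBD had no peak there in its list of 3277, and its nearest peak was 8162 bp away.

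SQLE, which encodes squalene epoxidase, was occupied by Sp1 WT (24.9 and 48.6), Sp1 DBD (19.8 and 19.4) and EWS IDR-Sp1 DBD (18.8 and 12.03). Of the anti-V5 lists it was in those of the Sp1 IDR-LacI line, with 15.01 and 31.9 (rabbit) and 15.2 and 24.3 (mouse), the Sp1 WT rabbit list (9.46 and 19.1) and the Sp1 IDR-CTCF DBD mouse list (13.5 and 21.5). It was in neither parental list. FDFT1, which encodes squalene synthase, was in the 3 anti-FLAG lists only, and low in each. Its −log10 p-values were 11.8 and 27.3 for Sp1 WT, 11.2 and 16.3 for Sp1 DBD, and 12.9 and 13.6 for EWS IDR-Sp1 DBD. The FDFT1 summit of Sp1 WT was nearest to the start of a long noncoding RNA, ENSG00000255046 (7 bp).

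HSD17B7, a reductase of sterol ketones, showed the opposite membership. It was in 5 anti-V5 lists, with 20.8 and 36.9 in the parental rabbit and 12.01 and 32.7 in the parental mouse list, but among the constructs only in Sp1 WT (14.7 and 30.5). MSMO1, the methylsterol oxidase, had a strong Sp1 WT peak (31.4 and 35.2, percentile 79.5), a weak Sp1 DBD peak (14.3 and 10.2, percentile 10.5) and a weak peak in the Sp1 WT rabbit anti-V5 list (10.9 and 14.3, percentile 14.8).

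DHCR7, which makes cholesterol from its direct precursor, had peaks at different places. Sp1 WT had 2, at chr11:71448157-71449302 (percentile 38.8), by the main start, and at chr11:71451183-71453736 (percentile 69.6; 25.7 and 29.04), where the start of NADSYN1 was 6 bp from the summit. EWS IDR-Sp1 DBD also had both (percentiles 17.1 and 27.8). Sp1 DBD (22.8 and 22.8), parental rabbit anti-V5 (9.91 and 22.2) and the rabbit anti-V5 list of the Sp1 IDR-LacI line (9.02 and 17.5) had a peak at the main start only.

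CYP51A1 (13.3 and 36.8), NSDHL (14.7 and 20.6) and EBP (15.8 and 28.4), which encode a demethylase, a dehydrogenase and an isomerase of sterols, were occupied by Sp1 WT and in no other list. Their percentiles were 26.8, 32.3 and 37.8. The NSDHL peak was shared with its neighbour CETN2, whose start was nearer to the summit (94 bp). The CYP51A1 summit was nearest to the start of a long noncoding RNA, CYP51A1-AS1 (9 bp). The EBP peak also lay within 1000 bp of a start of another protein-coding gene, ENSG00000286268. TM7SF2, LBR and SC5D had no peak in any list, with the nearest Sp1 WT peaks at 4129, 380711 and 744291 bp.

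Of the fatty acid genes, ACACA, which encodes acetyl-CoA carboxylase, was occupied by Sp1 WT (12.8 and 47.3) and Sp1 DBD (13.3 and 21.7), at the internal promoter whose sequence is given above. Its replicate percentiles spread from 24.1 to 74.8 for Sp1 WT and from 25.3 to 58.4 for Sp1 DBD. A further Sp1 WT peak, at chr17:37406891-37407632 by the main start, was among the weakest of its list (percentile 0.437). FASN, the fatty acid synthase, and SCD, the stearoyl-CoA desaturase, were in no list (nearest Sp1 WT peaks at 41115 and 381690 bp). STARD4 and NPC1, which move sterol between membranes, were in none either (1463950 and 79836 bp).

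Occupied genes did not rank high as a group in the Sp1 WT list. Their median percentile was 35.4, against 54.8 for all 4744 occupied protein-coding genes, and they ran from 12.7 (FDPS) to 86.5 (PMVK). The replicates differed in this respect. By the first replicate alone the median of the 16 genes was 35.4, against 54.7 for all, and by the second alone it was 52.2, against 56.2. PMVK, LSS, MSMO1, DHCR7, SQLE, MVK and SREBF2 were above the 50th percentile of the list, and the other 9 below it. DHCR7 was above it through the peak by the start of NADSYN1, and its peak by the main start was at percentile 38.8. At an irreproducible discovery rate of at most 0.01, the 6 genes left were PMVK, LSS, SQLE, SREBF2, MVK and MSMO1.

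**Figure D3:**
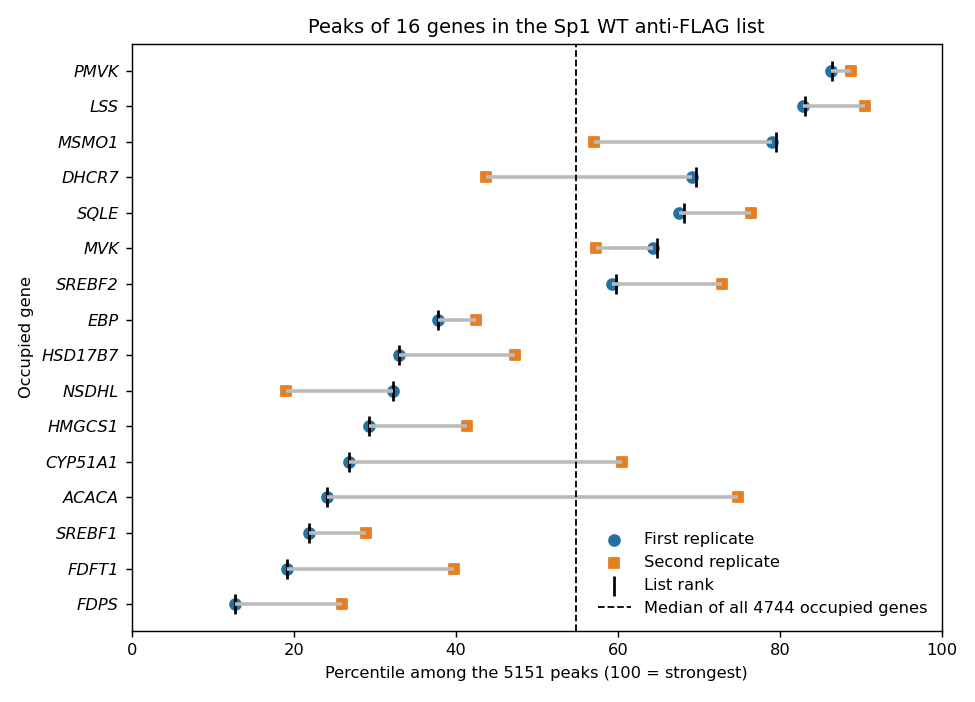
Percentile among the 5151 Sp1 WT peaks (x axis) for the 16 occupied genes (y axis), in the first (circles) and the second replicate (squares) and in the list (bars), with the median of all 4744 occupied genes dashed at 54.8. PMVK and LSS lie above it in both replicates with little spread, whereas CYP51A1, ACACA and DHCR7 cross it between the replicates.

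Of the other Sp1 lists, only the mouse anti-V5 list of the Sp1 WT line, which held LSS alone, had a median above that of all its occupied genes. The medians were 40.6 against 52.7 for Sp1 DBD, 32.0 against 53.1 for EWS IDR-Sp1 DBD, 48.8 against 53.0 for parental rabbit and 27.05 against 52.0 for parental mouse anti-V5. These rest on 5 to 9 genes each and moved with the replicate ranked. In the first and the second replicate alone they were 30.6 and 58.4 for Sp1 DBD, 53.9 and 32.7 for EWS IDR-Sp1 DBD, 48.7 and 32.4 for parental rabbit, and 27.05 and 10.6 for parental mouse anti-V5.

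Ranks were compared between constructs by asking whether the ranges spanned by the replicate percentiles were apart. This comparison reads the place of a peak within its own list, and lists of different length have different weak ends. Between Sp1 WT and Sp1 DBD, 4 of the 9 genes in both lists were higher in Sp1 WT (MSMO1, MVK, PMVK and SQLE), and 48.7% of the 2586 genes in both lists were. SREBF1 alone was higher in Sp1 DBD, as were 11.9% of all genes in both, but its highest-ranked peaks in the lists were at different starts. At the start that both lists share, SREBF1 had replicate percentiles of 7.06 and 48.9 for Sp1 WT and 45.8 and 59.5 for Sp1 DBD, which overlap. ACACA, DHCR7, FDFT1 and SREBF2 overlapped, and the DHCR7 peaks compared were also at different places.

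At MSMO1 the replicate percentiles were 79.1 and 57.0 for Sp1 WT and 29.9 and 6.77 for Sp1 DBD, and at MVK they were 64.3 and 57.4 against 22.8 and 19.5. PMVK (86.3 and 88.7 against 75.7 and 67.2) and SQLE (67.6 and 76.5 against 55.5 and 50.9) were closer. The share of the 9 genes that was higher in Sp1 WT was near that of all genes.

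Between Sp1 WT and EWS IDR-Sp1 DBD, 4 of the 7 genes in both lists were higher in Sp1 WT (DHCR7, LSS, PMVK and SQLE). Of all 1793 genes in both lists, 52.2% were. The DHCR7 peaks compared were those by the start of NADSYN1. By its main start DHCR7 had replicate percentiles of 38.8 and 77.5 for Sp1 WT. Those for EWS IDR-Sp1 DBD were 12.5 and 53.3, which overlap the Sp1 WT range. SREBF1 was higher in EWS IDR-Sp1 DBD, as were 10.9% of genes, again at a different start, and FDFT1 and SREBF2 overlapped. LSS had 82.9 and 90.5 for Sp1 WT and 75.7 and 64.4 for EWS IDR-Sp1 DBD. Only genes with overlapping peaks gave 4 of 7 higher in Sp1 WT over Sp1 DBD and 4 of 6 over EWS IDR-Sp1 DBD, with 0 lower in either. Of all genes with overlapping peaks, 49.0% of 2501 were higher and 10.8% lower in Sp1 WT than in Sp1 DBD, and 52.8% of 1730 were higher and 10.5% lower than in EWS IDR-Sp1 DBD.

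**Figure D4:**
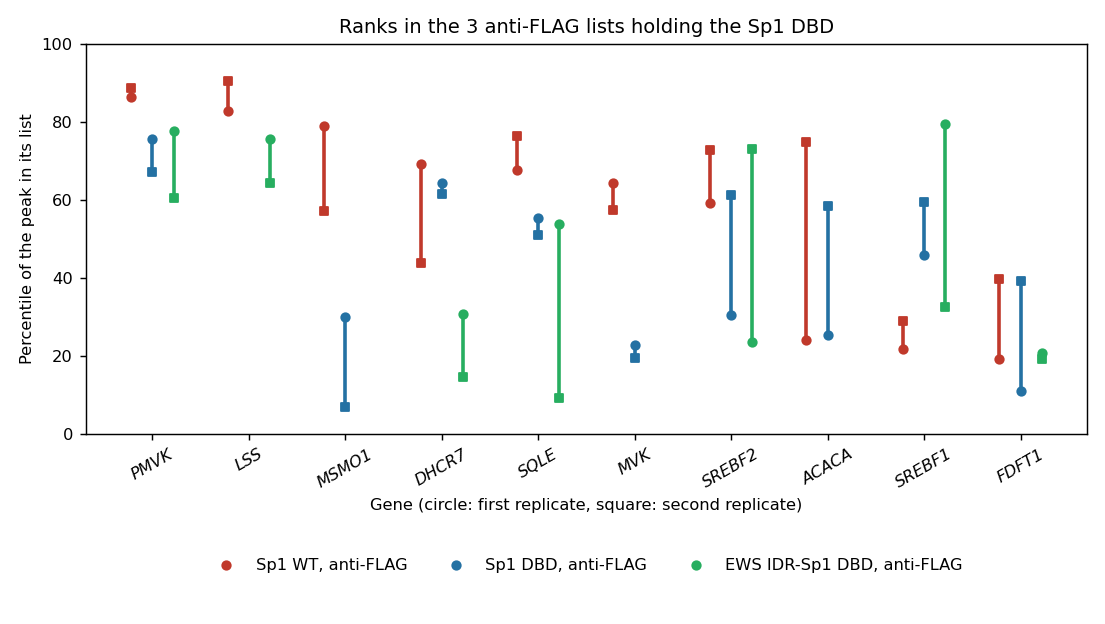
Percentile of the highest-ranked peak in its list (y axis) for the 10 genes (x axis) occupied by Sp1 WT and by Sp1 DBD or EWS IDR-Sp1 DBD, in the first (circles) and the second replicate (squares), joined by lines. At MSMO1 and MVK the Sp1 WT range lies wholly above the Sp1 DBD range, whereas at SREBF2, ACACA and FDFT1 the ranges overlap. At SREBF1 the Sp1 WT peak is at a different start from the others, and at DHCR7 the Sp1 DBD peak is.

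Sequence features were then counted at the peaks. A GC box lay within 100 bp of the Sp1 WT summit in 11 of the 16 occupied genes (68.8%), against 74.5% of all occupied genes. Every one of the 16 peaks held a GC box somewhere, as did 97.6% of all. The share with a GC box at the summit was thus no higher than in the other genes with Sp1 WT peaks. The peaks had a median width of 1186 bp, against 1002 bp for all, and their summits lay a median of 111 bp from the start, against 130 bp. Of the 16 summits, 15 were upstream of the start used, which was the gene's start nearest to the summit. The upstream share over all occupied genes was not counted.

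CCAAT boxes were more frequent than in the background. Near the summit, within 100 bp, 11 of the 16 genes had one (68.8%), against 33.6% of all occupied genes. Anywhere in the Sp1 WT peak the gap was smaller, with 14 of the 16 (87.5%) against 70.3%. In the promoter window, 21 of the 29 genes had a CCAAT box (72.4%), against 36.1% of all genes, and MVK and NSDHL had 5 each. The share was the same, 75.0%, in the 16 genes occupied by Sp1 WT and in the 12 genes that no Sp1 list held.

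The sterol regulatory element TCACCCCAC was rare in this exact form. It was found within 100 bp of the Sp1 WT summit of SREBF2 alone (6.25% of the 16, against 0.337% of all occupied genes), and in the promoter windows of SREBF2 and FASN (6.90% of the 29, against 0.524%). FASN had no peak in any list.

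The 12 genes that no Sp1 list occupied were SCAP, INSIG1, ACAT2, MVD, IDI1, TM7SF2, LBR, SC5D, FASN, SCD, STARD4 and NPC1. All 12 had a GC box in the promoter window. The longer form GGGGCGGGG was in that window in 6 of them (50%) and in 5 of the 16 genes that Sp1 WT occupied (31.3%), against 24.5% of all genes. The window is at the main start, which for SREBF1, DHCR7 and ACACA is not where the highest-ranked Sp1 WT peak lay. Anywhere in the Sp1 WT peak, the longer form was in 8 of the 16 genes (50%), against 62.6% of all occupied genes. Only NSDHL lacked a GC box in the promoter window. Sp1 WT occupied it, with a GC box within 100 bp of the summit.

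**Figure D5:**
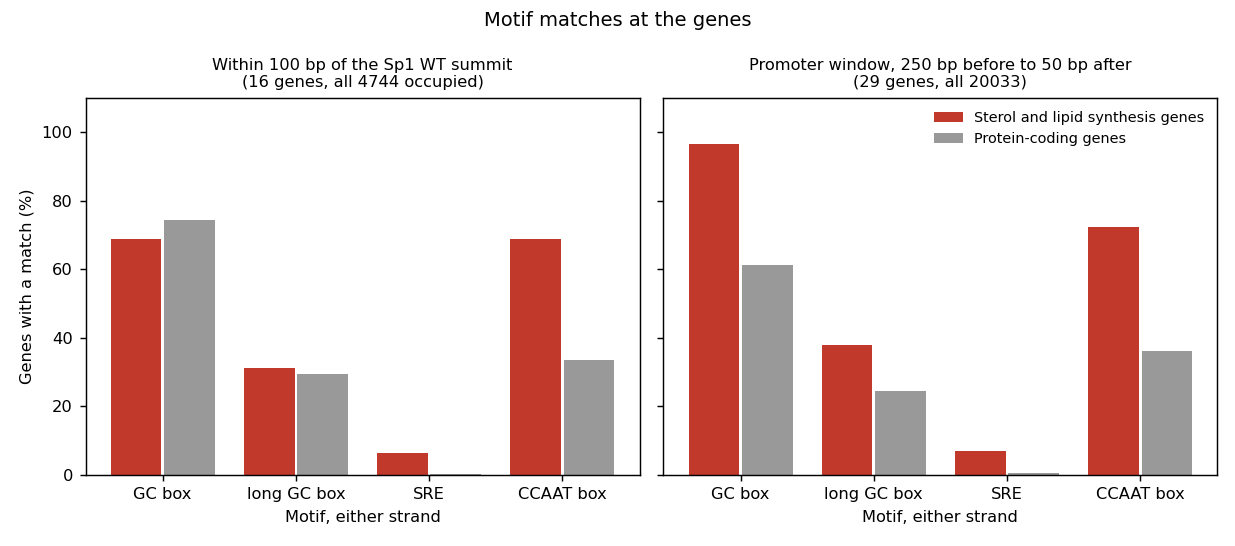
Share of genes with a motif match (y axis, percent) within 100 bp of the Sp1 WT summit (left; 16 genes in red, all 4744 occupied genes in grey) and in the promoter window (right; 29 genes in red, all 20033 in grey). CCAAT boxes show the widest gap near the summit, 68.8% against 33.6%, whereas the GC box shares there are 68.8% and 74.5%.

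Of 26 other genes of sterol and fatty acid metabolism, 16 were occupied by Sp1 WT (61.5%, against 23.7% of all genes). Sp1 DBD occupied 11 (42.3%, against 16.1%) and EWS IDR-Sp1 DBD occupied 4 (15.4%, against 11.1%). The shares of the 29 were 55.2%, 31.0% and 24.1%, so the other genes had the lower share for EWS IDR-Sp1 DBD only. Those in the most lists were ACSS2, which makes acetyl-CoA from acetate, GGPS1, the geranylgeranyl diphosphate synthase, and NPC2, the lysosomal partner of NPC1. Each was in all 11 Sp1 lists, with Sp1 WT percentiles of 95.9, 82.1 and 99.1. NPC2 was thus near the top of a list in which NPC1 was absent. The median Sp1 WT percentile of the 16 other genes was 56.1, near the 54.8 of all occupied genes. It was above the 35.4 of the 16 genes described here, but by the second replicate alone these had 52.2. A median by replicate was not computed for the other genes.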

How the data were processed

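CUT&RUN peaks were analysed for 38 samples, grouped by the sample labels into 19 pairings of a U2OS line with an antibody, in 2 replicates. The authors' steps were trimming (Cutadapt 2.6), alignment to hg38 (Bowtie2 2.3.5.1), removal of duplicates (SAMtools 1.9) and peak calling (MACS3, version stated as 2.2.7.1) with merged control replicates as background. Peaks whose irreproducible discovery rate was at most 0.1 make up the lists. The deposited −log10 p-value of a peak is given for each replicate and, as the smaller of these, for the list; it was used to rank peaks within a list. The deposited score used for stricter thresholds is the −log10 of that rate. The sources used here do not say which labelled replicate is the first column. Tables of the authors' own comparisons between constructs were not used. Read numbers were not analysed here, and no intervals that need them are given.

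Peaks were assigned to GENCODE 44 transcript starts within 1000 bp of a peak edge, using the highest-ranked peak of a gene, with Python 3.11.15, pandas 2.3.3 and pysam 0.24.0. RefSeq promoters were matched by symbol for 25 of the 29 genes, and all 33 were identical to hg38. The promoter window of each gene ran from 250 bp before to 50 bp after its main start. Peak assignment was tested on simulated data. The genes, the other pathway genes, the motifs and the rules were chosen with earlier results of these data known. All 29 genes are named, and of the other genes those in the most lists.

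No test between lists was run. Alternatives were the distance, the summit in place of the edge, stricter rates, 1 start per gene, coding transcripts only, lists of equal length, removal of control peaks, each replicate alone, and other motif windows.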

Additional observations from a re-analysis of the deposited data

How the results depend on the processing

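Of 75 alternative values, 64 stayed close to those reported (a count within 1.5 times, or a median within the spread between the replicates) and 11 moved. Not all of the 64 could move. Removing control peaks changed none of the counts, as no control peak lay within 1000 bp of a protein-coding start. Cutting to 1830 peaks left the parental mouse anti-V5 list as it was. At an irreproducible discovery rate of at most 0.01, Sp1 WT held 6 of the 29 genes (13.3% of all genes) and Sp1 DBD 3 (7.14%). EWS IDR-Sp1 DBD held 2 (3.87%), each parental anti-V5 list 2 and CTCF DBD 0 (0.449%). At that rate the 2 genes in each parental list were 6.90% of the 29, against 6.27% of all genes for the rabbit and 6.74% for the mouse antibody. Percentiles were ranked anew within each shortened list, so they are not on the scale of the 35.4 reported above. Ranked so, the median Sp1 WT percentile at a rate of 0.01 was 48.8, against 51.9 for all occupied genes. At a rate of at most 0.05 it was 26.5, against 54.5. In lists cut to 1830 peaks Sp1 WT held 6 and Sp1 DBD 4. The median Sp1 WT percentile ranged from 35.4 to 52.2 with a single replicate ranked. GGGGCGGGG lay within 100 bp of the summit in 5 genes (31.3% of the 16, against 29.4% of all occupied genes). Counting each peak only for the nearest protein-coding start, an alternative chosen after seeing the data, left 14 genes for Sp1 WT (19.7% of all genes). No paired analysis was possible because the sources used here do not say which labelled replicate each value column holds, and no test was run. Read numbers were not analysed here, and absence of a peak is not absence of binding.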

Other observations

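Among genes of the SREBP partner factors, NFYA, which encodes the CCAAT-binding subunit of NF-Y, was in 9 of the 11 Sp1 lists, with a Sp1 WT percentile of 97.5. NFYC was in 2 (Sp1 WT percentile 11.0), and NFYB, USF1 and USF2 were in none. FADS1 and FADS2, the fatty acid desaturases that share 1 promoter region, had the same Sp1 WT peak at percentile 30.9 and were also in the CTCF DBD and Sp1 IDR-CTCF DBD lists. NFYA was named as the partner factor gene in the most lists, which is a choice by its values. The other genes here were named after their values were seen.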
